A study of Pan troglodytes and Macaca mulatta with 12 samples.

Results

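The exons of 36 bases or less are the shortest class in these exon tables, which hold RNA-seq counts from primate lymphoblastoid cell lines. They were picked by length alone (end minus start plus 1) in gene identifiers with 3 or more exon names, and 399 of the 119202 exons, in 368 genes, met the rule. A lymphoblastoid line is grown from B lymphocytes that were immortalised so that they keep dividing. Chimpanzee was represented by 6 lines, from 3 females and 3 males, and rhesus macaque by 6 lines, from 2 females and 4 males. Each line gave 1 library, and the labels used name no treatment, time point or age. Total counts ran from 1434241 to 4751954 per library, and chimpanzee replicate 1 was the smallest. In such bulk libraries, fewer cells using an exon and less of it in each cell cannot be told apart. The cell type could not be checked against B cell markers, because the files name genes by identifiers that matched 0 symbols in the reference tables. Exons are therefore given by chromosome, start and end as the files write them; their genome build is one that the sources used here do not name, and no sequence is printed.

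Very short internal exons, the shortest of which are often called microexons, can be a special case for the splicing machinery. Whether this background holds for the members here was not tested. The splice sites at either end lie so close together that the complexes binding each site can hinder one another, and there is little room inside the exon for the enhancer sequences that help define longer exons. Many therefore depend on elements in the flanking introns. Microexons are best known from neurons, where a dedicated splicing programme includes them, but other tissues use short exons too, as constitutive parts of a transcript or as switches. An exon whose length is divisible by 3 can be included or skipped without shifting the reading frame.

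The members were between 26 and 36 bases long, and 26 bases was also the shortest exon in the files. There were 118 members of 36 bases and 86 of 33 bases, against 65 of 35 bases and 48 of 34 bases. In all, 227 members (56.9%) had a length divisible by 3. The share was 71.9% for the 32 exons of 26 to 30 bases and 55.6% for the 367 exons of 31 to 36 bases. It was 43.4% for exons of 37 to 48 bases, 42.0% for 49 to 72 bases, 38.3% for those over 120 and up to 250 bases and 33.3% for exons over 1500 bases. Divisibility thus fell with length over these classes, which all come from genes with 3 or more exon names.

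**Figure D1:**
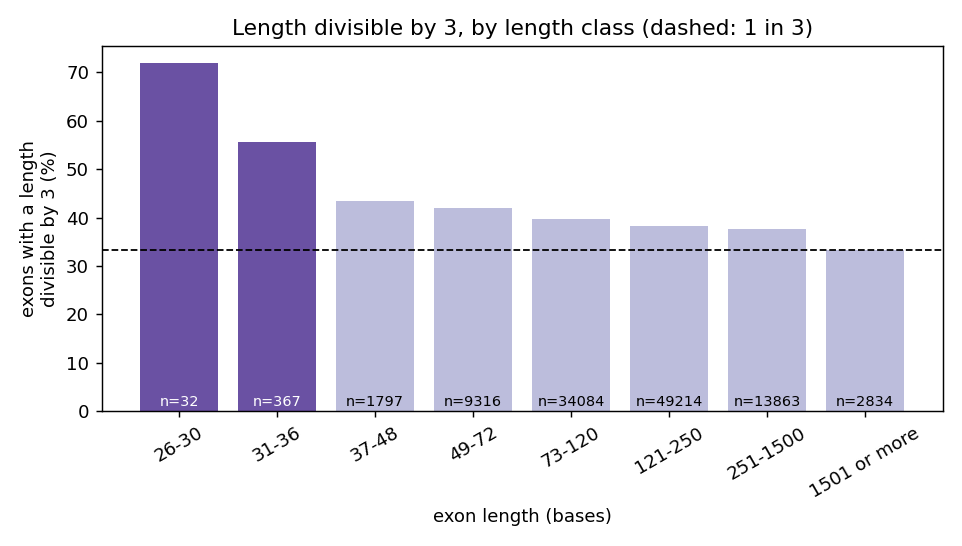
Percentage of exons whose length is divisible by 3 (vertical axis) in each length class in bases (horizontal axis), with the number of exons in each bar, the classes of 36 bases or less in dark purple and the 1 in 3 level dashed. The 26 to 30 base class stands at 71.9% and the class over 1500 bases at 33.3%.

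Exon numbers in the files rise with the coordinate in every gene, so they do not tell the direction of transcription. By that numbering 323 members (81.0%) were internal, 46 carried the lowest listed number of their gene and 30 the highest. Among exons of 37 bases or more in the same kind of gene, 80.2% were internal. Members at an end of the gene made up 16.7% of those divisible by 3 and 22.1% of the others. The median gene with a member had 12 listed exons, against 8 for all genes with 3 or more. The nearest listed exon of the same gene lay a median of 798 bases away (1057 bases for all exons of such genes). In 8 members (2.01%) the gap was 10 bases or less, against 0.129% of all exons, so these 8 adjoin another listed piece of the gene. Chromosome 1 held 55 members (13.8% of members, 10.6% of all exons) and chromosome 5 held 4 members, with 4.61% of all exons.

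Most of the genes, 351, held a single member and 14 held a pair. A gene with 71 listed exons on chromosome 3 held 9 members between 48580936 and 48594795, each of exactly 36 bases and internal. All 9 together had 13 counts, so the gene was read too thinly to test any of them. A gene with 54 listed exons on chromosome 1 held 8 members between 31895221 and 31930697, 7 of them of 36 bases and 1 of 33. All 140 counts on these 8 came from rhesus macaque. In chimpanzee the whole gene had 17 counts, against 4885 in rhesus macaque (gene log2 fold change -8.25, edgeR adjusted p = 0.000186), so the chimpanzee shares rest on very few counts. Of the 8 members, 5 had enough counts over all libraries to enter the exon usage test. None of the 5 passed it, nor the exact permutation test of shares (smallest adjusted p over all exons = 0.106). Another gene, on chromosome 19, held 3 members of 35 bases between 10135002 and 10145581. Members of 1 gene share its level and are not independent of each other.

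Few reads were assigned to these exons. The members together took between 0.0254% and 0.0527% of a library, 12842 counts in all 12. The median member had 6 counts over the 12 libraries, 88 members had a single count, and 2 members held 36.7% of all member counts. Between 113 and 226 members had a count in a given library, most in chimpanzee replicate 6 and rhesus macaque replicate 6, which were also the largest libraries. Counts in all 12 libraries were found for 29 members (7.27%), against 12.5% of exons of 37 to 48 bases and 46.7% of exons over 120 and up to 250 bases. Both species had counts for 234 members, only chimpanzee for 83 and only rhesus macaque for 82. An exon with no count in any library is not listed in the files, so these figures describe exons read at least once.

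Counts were low even per base. Read density was taken as the count per base of an exon divided by the count per base of the other exons of its gene, over genes with at least 100 counts in the species. A value of 1 means that an exon was read as densely as the rest. The median over members was 0.193 in chimpanzee (333 exons) and 0.218 in rhesus macaque (342 exons). For exons of 37 to 48 bases it was 0.446 and 0.387, for 73 to 120 bases 0.946 and 0.812, and for those over 120 and up to 250 bases 1.07 and 0.956. The median very short exon was thus read less densely than the rest of its gene in both species, and the median rose over these classes of longer exons. The sources used here do not say how reads crossing an exon boundary were counted.

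Within the members the density was highest at 36 bases. In chimpanzee the median was 0.131 at 33 bases, 0.171 at 34, 0.221 at 35 and 0.372 at 36. In rhesus macaque it was 0.189, 0.276, 0.226 and 0.376. Just outside the limit, at 37 bases, 77 exons stood at 0.372 and 0.347 with a median of 13 counts, while the 118 exons of 36 bases had a median of 7 counts. The densities on either side of the limit were thus close, and the larger step lay between 35 and 36 bases. In the libraries taken one by one, the mean density at 36 bases was above that at 35 bases in 12 of 12. The median density went the other way in chimpanzee replicate 5 (0.209 at 35 bases, 0.0277 at 36) and rhesus macaque replicate 3 (0.155 and 0.0302). In the other libraries the median was higher at 36 bases. The mean density of exons of 26 to 35 bases was 0.275 ± 0.0406 over the chimpanzee libraries, ranging from 0.237 to 0.349, and 0.297 ± 0.0707 over the rhesus macaque libraries, ranging from 0.199 to 0.385 (SD, n = 6 each). For exons of 36 bases it was 0.530 ± 0.0769 in chimpanzee, from 0.382 to 0.602, and 0.539 ± 0.0664 in rhesus macaque, from 0.478 to 0.657. Part of this came from a single exon on chromosome 4, the member with most counts. Without it the means at 36 bases were 0.451 ± 0.0696 and 0.391 ± 0.0501, and they lay above those at 35 bases (0.264 ± 0.0261 and 0.238 ± 0.0785) in 11 of 12 libraries. With all exons, the species means differed by less than 1 SD between libraries in both classes. Members divisible by 3 had a median density of 0.217 in chimpanzee and 0.251 in rhesus macaque, and the others 0.181 and 0.192, but all exons of 36 bases fall in the first set.

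**Figure D2:**
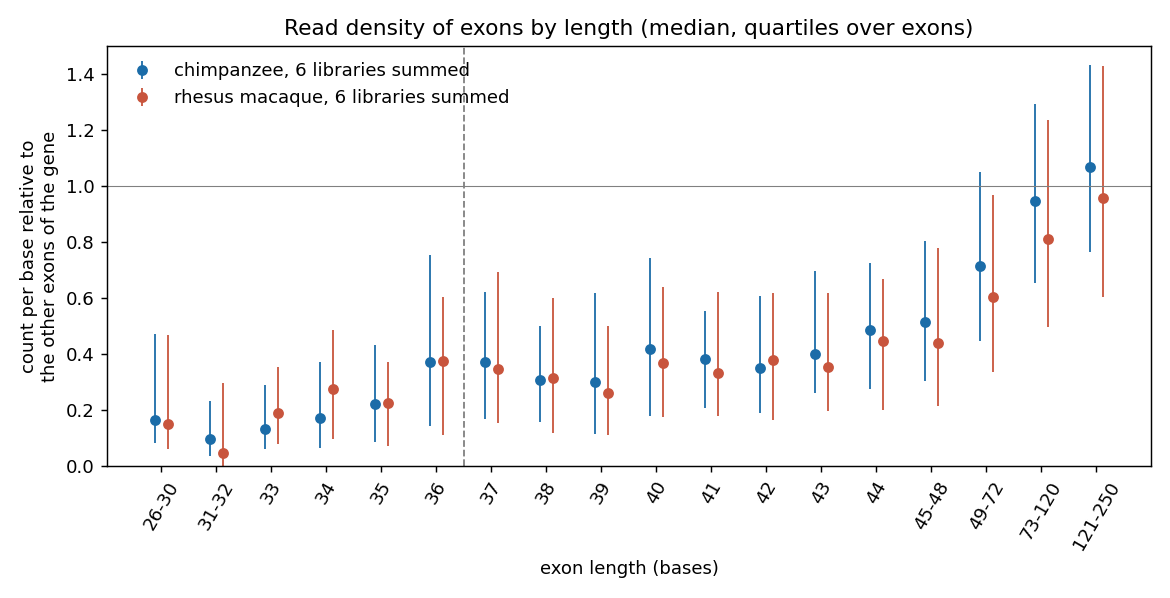
Count per base relative to the other exons of the gene (vertical axis) by exon length in bases (horizontal axis), as the median (point) and quartiles (line) over exons, for the 6 summed libraries of chimpanzee (blue) and rhesus macaque (red); the dashed line marks the limit of 36 bases and the grey line a density of 1. The chimpanzee median is 0.131 at 33 bases, 0.372 at 36 and 1.07 in the longest class shown, and the quartiles of the species overlap at every length of 36 bases or less.

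The main comparison asked whether a short exon takes a different share of its gene's counts in the 2 species, which leaves out the level of the gene. Both species were counted under the same exon names. Whether reads of each species were assigned to these exons equally well was not tested. A difference in share is therefore not necessarily one in exon usage. Of the 399 members, 153 (38.3%) had at least 10 counts and lay in a gene with at least 2 such exons. The other 246 were not tested, 244 of them for too few counts. In the fit over all 87939 exons, 4 members passed (edgeR diffSpliceDGE, adjusted p under 0.05), which is 2.61% of those tested against 0.869% of all exons. All 4 had the higher share in chimpanzee (background 0.546% for that direction) and 0 had the lower (background 0.323%). Those on chromosomes 22 and 6 had 0 counts in rhesus macaque, so they reached the minimum of 10 counts through chimpanzee alone. By total count, 2 of 65 members passed at 10 to 19 counts, namely those on chromosomes 22 and 6. At 20 to 49 counts 0 of 52 passed, and at 50 or more 2 of 36. Among exons of 37 bases or more these shares were 0.421%, 0.636% and 0.970%. At an unadjusted p under 0.05 there were 18 members, 10 higher and 8 lower, or 11.8% against 9.61% of all exons. The median log2 fold change of the tested members was 0.27, against 0.12 over all tested exons, and 91 members (59.5%) lay above 0 against 57.9% of exons.

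Taken by library, the shares of 4 members did not overlap and were higher in chimpanzee (2.61%, background 2.74%), and those of 3 were higher in rhesus macaque (1.96%, background 1.99%). With limma in place of edgeR 4 members passed (2.61%, background 2.38%), 3 of them the same. Limma did not call the chromosome 12 exon from 6945109 (adjusted p = 0.0674) and called a 33-base exon on chromosome 3 from 151747209 to 151747241 as lower in chimpanzee (limma adjusted p = 0.0442, edgeR adjusted p = 0.190), which is named after its values were seen. With no minimum count edgeR called 5 of 399 (background 0.64%). With the exact permutation test of shares in place of the model, these same 7 members (4.58%) passed with adjusted p = 0.0457 over all exons, against 4.73% of exons. Only exons at the smallest possible p passed, so this test counts the non-overlapping shares again. In it, a library without counts for the gene was given a share of 0, for members and all other exons alike. The share of members called was therefore near that of all exons by limma and by the permutation test. It was above it by edgeR, where it rests on 4 exons. Across the 141 tested members whose genes had counts in every library, mean shares in the 2 species went together (Spearman's rho = 0.673, and 0.748 over the 36 members with at least 50 counts). An exon's listed length and the listed exons of its gene are the same for both species. The rho is therefore not a measure of conserved usage. The exons in this description share libraries and read depth, and a low share carries a large counting error.

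**Figure D3:**
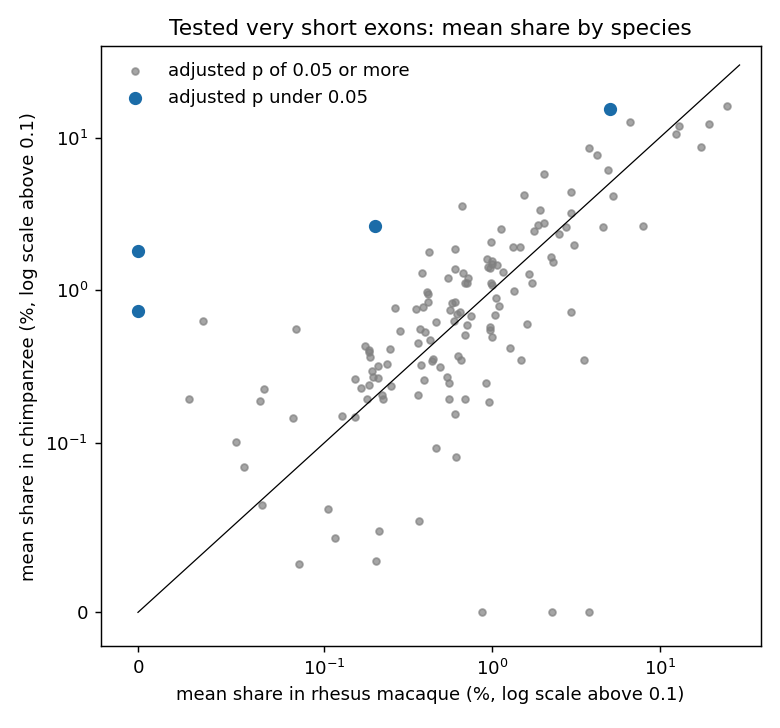
Mean share of the gene's counts in chimpanzee (vertical axis) against rhesus macaque (horizontal axis), both in percent and on a log scale above 0.1, for the 141 tested short exons whose genes had counts in every library; blue points passed the edgeR exon usage test and the line marks equal shares. The 4 blue points lie above the line, and 3 grey points at 0 in chimpanzee had shares in rhesus macaque of 0.878%, 2.30% and 3.80%.

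The smallest adjusted p among members was that of a 33-base exon on chromosome 19 from 45563300 to 45563332, the lowest-numbered of 11 listed exons of ENSG00000105223. Its share in chimpanzee had a lowest value of 1.41%, a median of 2.2649% and a highest of 5.62%. In rhesus macaque the lowest was 0%, the median 0.193% and the highest 0.406%. Every chimpanzee library lay above every rhesus macaque library. The means were 2.64% ± 1.57 and 0.201% ± 0.163 (SD, n = 6 each). The log2 fold change was 3.46 ± 0.51 (SE; edgeR adjusted p = 9.40e-07; exact permutation p = 0.00216, two-sided, the smallest that 6 against 6 can give). On the scale of CPM, counts scaled by library size, the exon itself stood at 2.92 ± 0.974 for chimpanzee against 1.69 ± 1.25 for rhesus macaque. The other exons of the gene together stood at 121.15 ± 36.1 and 825 ± 215 CPM. The gene as a whole was lower in chimpanzee (log2 fold change -2.73, edgeR adjusted p = 2.20e-06). The exon's counts were thus not lower with those of the rest of the gene. None of the other 10 tested exons passed (smallest edgeR adjusted p = 0.215). The exon rests on 49 counts in chimpanzee and 33 in rhesus macaque.

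A 36-base internal exon on chromosome 22 from 28397902 to 28397937, in ENSG00000186575, had counts in chimpanzee only. Its counts in chimpanzee replicates 1 to 6 were 1, 1, 1, 2, 1 and 8, and 0 in each rhesus macaque library. The chimpanzee shares ran from 0.270% to 1.62% with a median of 0.629% and a mean of 0.733% ± 0.497 (SD, n = 6). In rhesus macaque 0 of 3236 counts of the gene fell on it, which allows a share of up to 0.0927% (3 counts over the group, counting error only). The pooled chimpanzee share of 0.802%, taken without its own counting error, was 8.65-fold that limit (edgeR adjusted p = 0.00349; exact permutation p = 0.00216). Its flanking exons, of 114 and 218 bases, held 3.86% ± 1.56 and 7.26% ± 2.34 in chimpanzee and 2.22% ± 0.931 and 6.24% ± 1.61 in rhesus macaque, and neither passed (edgeR adjusted p = 0.584 and 0.955). Replicate 6 gave 8 of the 14 counts, and without it the exon had too few counts to be tested.

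On chromosome 6, a 33-base internal exon from 105877647 to 105877679 was likewise read only in chimpanzee, where 5 of 6 libraries had it. Its counts there were 2, 3, 0, 2, 6 and 2, which gave shares from 0% to 4.29% with a median of 1.59%. The mean was 1.81% ± 1.61 (SD, n = 6), and rhesus macaque had 0 of 1599 gene counts, which allows up to 0.188%. The pooled chimpanzee share of 1.27%, taken without its own counting error, was 6.76-fold that limit (edgeR adjusted p = 0.00618; exact permutation p = 0.0152). The libraries overlapped at 0, since chimpanzee replicate 3 had no count either, and the permutation test did not pass once adjusted over all exons. The gene's level did not pass the test (log2 fold change -0.36, edgeR adjusted p = 0.274). Without chimpanzee replicate 5 the exon fell under the minimum count.

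The exon with most counts among those that passed was 32 bases long, on chromosome 12 from 6945109 to 6945140, the lowest-numbered of 3 listed exons. Its chimpanzee shares ran from 10% to 20.4% with a median of 15.5%, and its rhesus macaque shares from 2.98% to 7.32% with a median of 4.78%. The groups did not overlap. The means were 15.5% ± 4.18 and 5.05% ± 1.51 (SD, n = 6 each). The log2 fold change was 1.64 ± 0.42 (SE; edgeR adjusted p = 0.0401; exact permutation p = 0.00216). The level of the gene did not pass (log2 fold change 0.31, edgeR adjusted p = 0.431). The next exon along, of 85 bases, held 45.4% ± 9.80 in chimpanzee and 30.8% ± 3.50 in rhesus macaque without passing (edgeR adjusted p = 0.697). With 3 exons a change in one share moves the others, and this call was the least stable of the 4: it was kept in 4 of the 12 fits that left out 1 library, where the adjusted p ran from 0.0410 to 0.111. It did not pass in males only either (edgeR adjusted p = 0.370).

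**Figure D4:**
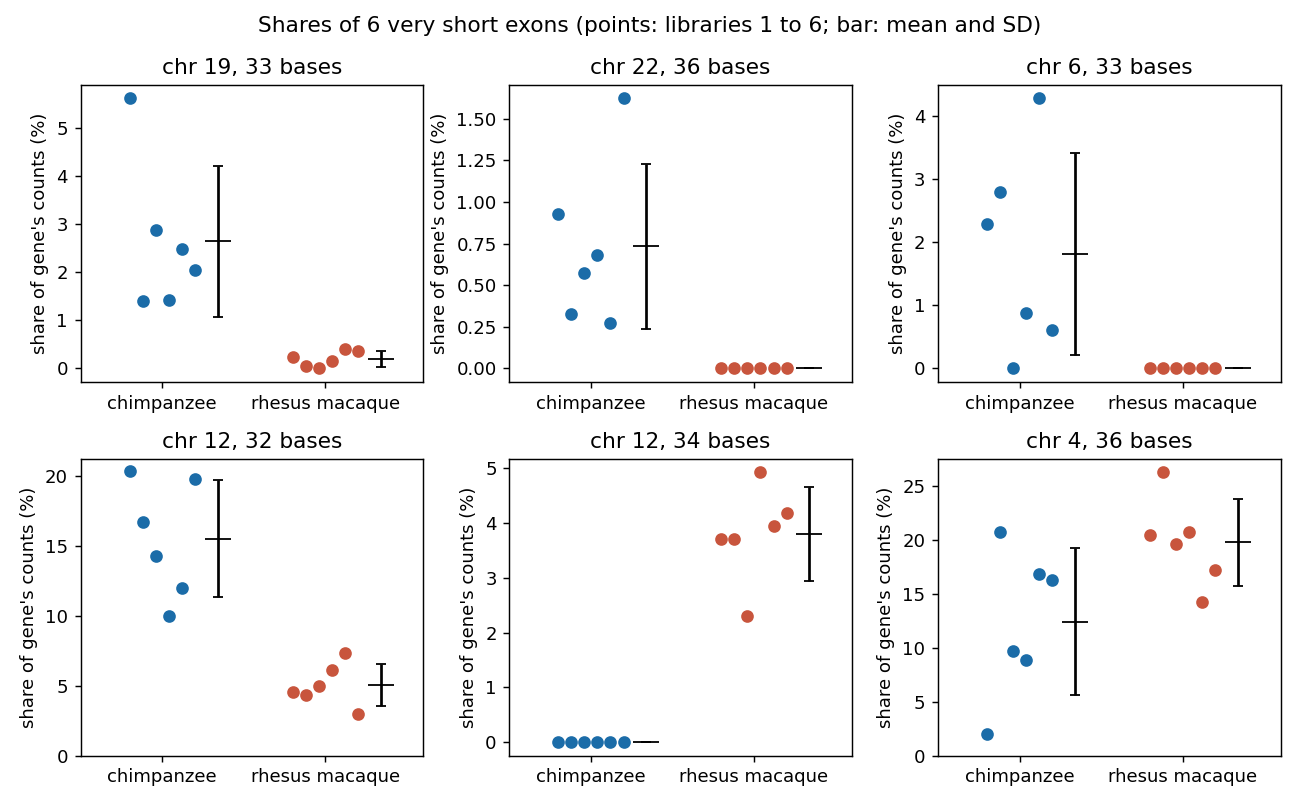
Share of the gene's counts in percent (vertical axis) for 6 short exons, 1 panel each, with 6 chimpanzee libraries (blue) and 6 rhesus macaque libraries (red) as points in replicate order and the mean with SD as bars. The first 4 panels are the exons that passed the exon usage test, where chimpanzee means are 2.64%, 0.733%, 1.81% and 15.5%; the last 2, on chromosomes 12 and 4, did not pass.

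In the other direction 0 members passed. Of the 82 members read in rhesus macaque alone 13 were tested, and 3 of these lay in genes with 284 to 360 counts in chimpanzee. One was a 34-base internal exon on chromosome 12 from 56305173 to 56305206. Its share in rhesus macaque ran from 2.31% to 4.93% with a median of 3.83% (mean 3.80% ± 0.858, SD, n = 6), and it had 0 counts in all 6 chimpanzee libraries. The gene itself was lower in chimpanzee (log2 fold change -2.51, edgeR adjusted p = 0.000585), and 0 of its 356 counts there allow a share of up to 0.843%. The pooled rhesus macaque share of 4.203%, taken without its own counting error, was 4.99-fold that limit. The model did not call it (edgeR adjusted p = 0.0616; exact permutation p = 0.00216), but it called it lower in chimpanzee with no minimum count (edgeR adjusted p = 0.0366). The 117-base exon before it did pass, with 6.55% ± 1.71 in rhesus macaque and 0.0761% ± 0.186 in chimpanzee (edgeR adjusted p = 0.0317), and the 95-base exon after it held 6.01% ± 2.96 and 1.74% ± 4.05 (edgeR adjusted p = 0.307). The exon before it was thus lower in chimpanzee too, in the same direction.

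A 34-base exon on chromosome 2 from 74586372 to 74586405, described after its values were seen, had 21 counts in rhesus macaque, with shares from 1.16% to 3.19%, and 0 of 360 gene counts in chimpanzee, which allows up to 0.833% (edgeR adjusted p = 0.0894). A 35-base exon on chromosome 15 from 76203102 to 76203136 was counted 96 times, always in rhesus macaque. Its gene was much lower in chimpanzee, however (log2 fold change -5.39, edgeR adjusted p = 8.59e-08). With 284 gene counts the chimpanzee share could be up to 1.06%, above the 0.860% pooled over rhesus macaque. The shares did not overlap, and the exon passed the exact permutation test (p = 0.00216, adjusted p = 0.0457) but not the edgeR test (adjusted p = 0.479). The permutation test takes each library's share as measured, so it does not carry this counting limit. Of the 13 tested members with 0 counts in chimpanzee, the other 10 lay in genes with between 0 and 22 chimpanzee counts. One was a 34-base exon on chromosome 12 from 121251796 to 121251829, with 43 counts in rhesus macaque in a gene that had 2 counts in chimpanzee. The reverse case was a 33-base exon on chromosome 4 from 71133300 to 71133332, with 13 counts in chimpanzee in a gene with 0 counts in rhesus macaque.

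The 10 members with most counts allowed the closest comparison of shares. The 36-base exon on chromosome 4 from 83513820 to 83513855 held 22.2% of all member counts. It carried the highest number of its gene and lay 30 bases after another exon, of 51 bases. Its density was 6.27 in chimpanzee and 8.84 in rhesus macaque, so it was read far more densely than the rest of its gene, against a member median near 0.2. Its share was lowest at 2.00%, with a median of 12.97% and a highest value of 20.7% in chimpanzee, and 14.2%, 20.02% and 26.3% in rhesus macaque. The groups overlapped, and chimpanzee replicate 1 was the lowest library. The means of 12.4% ± 6.81 and 19.8% ± 4.04 (SD, n = 6 each) did not pass in the model (edgeR adjusted p = 0.774; exact permutation p = 0.0455, not adjusted). The 51-base exon before it was also lower in chimpanzee, at 8.31% ± 4.98 against 19.4% ± 4.99, without passing (edgeR adjusted p = 0.247).

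Second came a 33-base exon on chromosome 19 from 1057539 to 1057571, also the highest-numbered of its gene, at 10.7% ± 6.29 in chimpanzee and 12.5% ± 6.62 in rhesus macaque. Its libraries ranged from 6.17% to 19.2% and from 5.48% to 22.4%, so individuals of 1 species differed by more than the species means (edgeR adjusted p = 0.951). A 33-base exon at the highest number of a gene on chromosome 17, from 24924036 to 24924068, was steadier. It held 11.9% ± 3.50 in chimpanzee and 13.04% ± 3.12 in rhesus macaque, with 49 and 270 counts, while its gene was lower in chimpanzee (log2 fold change -2.80, edgeR adjusted p = 7.33e-06). Here the exon was lower together with its gene.

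Of the remaining exons among the 10, the 36-base exon on chromosome 19 from 8436364 to 8436399 separated the species without passing the model. Its shares ran from 1.397% to 2.76% in chimpanzee and from 0.571% to 1.29% in rhesus macaque (edgeR adjusted p = 0.273; exact permutation p = 0.00216). The 39-base exon 117 bases before it, just over the length limit, held 1.94% ± 0.635 and 0.884% ± 0.328 (edgeR adjusted p = 0.143). The 35-base exon on chromosome 2 from 218798888 to 218798922 held 1.12% ± 0.346 and 0.714% ± 0.209 (edgeR adjusted p = 0.566). The 36-base exon on chromosome 2 from 85482757 to 85482792 held 1.93% ± 0.748 and 1.34% ± 0.890 (edgeR adjusted p = 0.972), in a gene higher in chimpanzee by a log2 fold change of 3.41 (edgeR adjusted p = 0.000695). On chromosome 14, the 36-base exon from 105004089 to 105004124 held 1.49% ± 0.716 and 1.01% ± 0.203. On chromosome 16, the 35-base exon from 31105624 to 31105658 held 1.31% ± 0.569 and 1.17% ± 0.424. On chromosome 12, the 36-base exon from 6731068 to 6731103 held 2.77% ± 2.39 and 2.05% ± 1.18. None of these last 3 passed (edgeR adjusted p from 0.600 to 0.943). For the chromosome 14 exon the difference was larger than the SD in rhesus macaque and smaller than that in chimpanzee. Without chimpanzee replicate 1 it was 0.672 percentage points (exact permutation p = 0.0152, not adjusted), and without chimpanzee replicate 6 it was 0.269. Leaving out any library other than chimpanzee replicate 1 gave an exact permutation p between 0.0996 and 0.305, not adjusted.

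The shortest members with at least 10 counts could be compared only roughly. A 28-base exon lay on chromosome 19 from 17190173 to 17190200, with 14 counts. Another 28-base exon, on chromosome 20 from 36534957 to 36534984, had 13. The first held 1.88% ± 2.35 in chimpanzee and 0.605% ± 0.532 in rhesus macaque, and the second 0.532% ± 0.350 and 0.401% ± 0.404. A 29-base exon on chromosome 4 from 142861752 to 142861780 had 9 of the 332 chimpanzee counts of its gene and 1 of the 74 rhesus macaque counts, with mean shares of 3.58% ± 3.91 and 0.667% ± 1.63. Exons of 30 bases on chromosome 1, from 168030851 to 168030880, and on chromosome X, from 11691008 to 11691037, held 5.75% ± 3.75 and 4.39% ± 3.62 in chimpanzee and 2.04% ± 2.272 and 2.96% ± 1.48 in rhesus macaque. In all 5 the libraries of the species overlapped, and none passed (edgeR adjusted p from 0.553 to 0.986). Of the 14 tested members of 30 bases or less, 0 passed, against 0.869% of all exons. These 14 are too few to be compared with that share.

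Summed over all members, short exons held 0.722% ± 0.131 of the counts of their genes over the chimpanzee libraries and 1.02% ± 0.170 over those of rhesus macaque (SD, n = 6 each). The libraries ran from 0.528% to 0.887% and from 0.809% to 1.26%, so the groups overlapped. This difference rested on the most abundant exons. Such a sum weights each gene by its counts, so unlike a single exon's share it also moves with gene level. The genes of the 2 members with most counts were both lower in chimpanzee. Their log2 fold changes were -0.61 and -1.29 (edgeR adjusted p = 0.0381 and 0.000592). Without the member with most counts the shares were 0.610% ± 0.0624 and 0.764% ± 0.0919. Without the 2 members with most counts they were 0.539% ± 0.0454 and 0.566% ± 0.0353. As a plain mean over the 126 members whose genes had at least 100 counts in every library, chimpanzee was the higher, with 0.722% ± 0.0893 against 0.628% ± 0.0486. Chimpanzee replicate 1 had the lowest pooled share. No test is given for these sums.

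**Figure D5:**
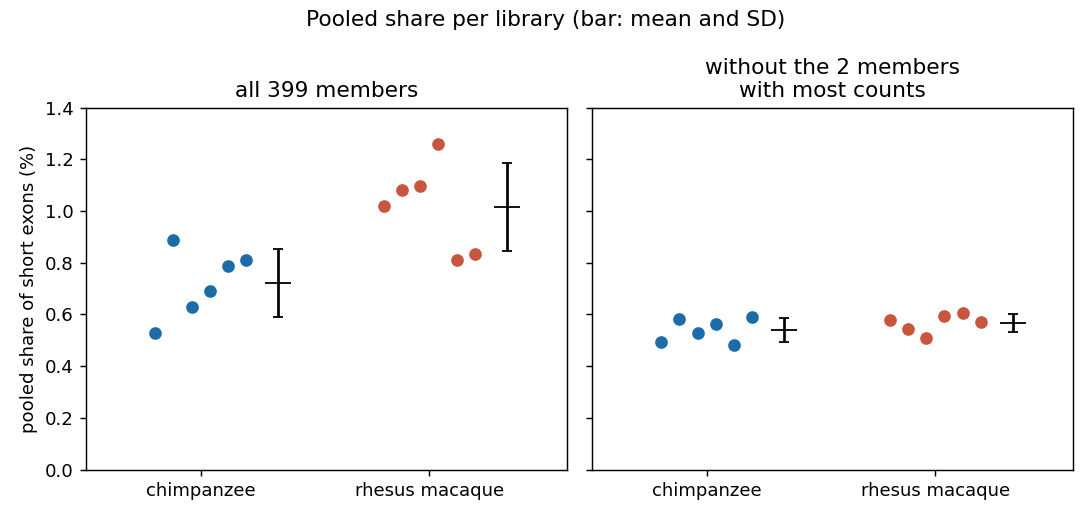
Summed counts of short exons as a percentage of the counts of their genes (vertical axis) in each library of chimpanzee (blue) and rhesus macaque (red), with mean and SD as bars, for all members (left) and without the 2 members with most counts (right). The means of 0.722% and 1.02% on the left become 0.539% and 0.566% on the right.

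The genes that hold short exons passed the test of level at a share close to that of all genes. Of the 327 that could be tested, 84 were higher in chimpanzee and 73 lower (adjusted p under 0.05 in edgeR's quasi-likelihood test). Together these were 48.01%, against 48.3% of all 9440 genes tested. The background in the 2 directions was 24.7% and 23.6%. The median log2 fold change was 0.17 for genes with a member and 0.04 for all genes.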

How the data were processed

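RNA from 12 lymphoblastoid lines was sequenced on a GAII; per the labels' protocols, no library step that marks strand is named. The authors deposited raw counts per exon, 1 file per library; exons without a count are not listed and were taken as 0. Aligner, read length, counting rule, build and how exons were defined: not given in the sources used here. Exons of other genes overlapped 2 members.

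Share is the exon's count divided by the summed count of its gene in the library; libraries without gene counts were left out of means and taken as 0 in permutation tests (12 tested members). Exon usage was tested with edgeR 4.0.16 (R 4.3.3) diffSpliceDGE on exons with at least 10 counts, TMM normalisation, species as the only term, Benjamini-Hochberg adjustment over all exons and a threshold of 0.05. Its natural-log coefficients were converted to log2; standard errors are the log2 fold change over the root of the F statistic. All log2 fold changes are chimpanzee over rhesus macaque. Those of exons at 0 in a species depend on the prior count and are not printed. Gene levels used glmQLFTest after the default filter (minimum count 10, minimum total 15, 6 libraries). CPM used TMM-scaled library sizes. A group at 0 was given a floor of 3 counts. Alternatives used limma 3.58.1 and DESeq2 1.42.0.

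Counts were also simulated (10000 genes) with equal shares in all libraries apart from the changed exons, and the same dispersion (spread beyond counting error) for every exon. Among changed exons that entered the fit, edgeR called 38.5% of short exons changed 8-fold and 0% of 23 changed 4-fold. For other exons it called 69.7% and 24.6%. There were 0 false calls in unchanged genes, and other exons of changed genes were not scored. The dispersion was not matched to each exon of the data, so these rates do not give edgeR's error there.

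The members, rules and lists were chosen with earlier results of these data known. Named exons are those that passed the test, the 10 with most counts, up to 3 tested per direction with 0 counts in a species and most in the other, and the 5 shortest with at least 10 counts. The lists of cell type markers and splicing regulators need symbols and were not run. The labels give each library its own line but no culture details. The p-values set the species difference against the spread between these libraries, in which line, culture and library cannot be told apart.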

Additional observations from a re-analysis of the deposited data

Results flagged for a closer look

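Each species' 6 libraries were checked for a value far from the others (a wide gap to its neighbour relative to the range). In this check 4 of 40 sets of values stood out. The cut would flag about 1 in 20 sets of normally distributed values. Shares from few counts need not follow that, so the 4 of 40 cannot be read against it. For the 33-base exon on chromosome 19 from 45563300 to 45563332, chimpanzee replicate 1 had a share of 5.62%, above the other chimpanzee libraries. In that library, the smallest, the exon had 5 counts. For the 28-base exon on chromosome 19 from 17190173 to 17190200, the same library stood at 6.25%, from 2 counts. For the 29-base exon on chromosome 4 from 142861752 to 142861780, chimpanzee replicate 2 stood at 11.1%, from 3 counts, and rhesus macaque replicate 6 at 4%, from 1 count, with the other 5 rhesus macaque libraries at 0.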

How the results depend on the processing

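The 4 of 153 short exons called for usage (0.869% of all exons) became 5 of 399 with no minimum count (0.64%), 4 of 153 with DESeq2-type size factors (0.931%), 4 of 153 with limma (2.38%), 4 of 152 without exons overlapping another gene (0.859%), 3 of 87 when thinned to the smallest library (0.677%) and 3 of 141 in genes with 5 or more exon names. There were 2 of 36 with a minimum of 50 counts (1.21%), 2 of 90 in males only (0.133%) and 7 of 153 with the exact permutation test of shares (4.73%). With length cuts of 27 and 30 bases it was 0, with 0 and 14 members tested. Leaving out 1 library gave between 2 and 4 calls (0.486% to 1.34% of all exons), with 2 of 127 without chimpanzee replicate 6. The chromosome 19 exon from 45563300 was called in all 12 of these fits, the chromosome 22 and chromosome 6 exons in 11 and untested in 1 each, and the chromosome 12 exon in 4. With a cut of 35 bases, chosen after seeing the data, 3 of 101 were called. The length cuts and the limit on exon names used the main fit, in which 0.869% of all exons were called.

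Genes with a short exon called for level numbered between 136 and 164 in the alternatives, where the share over all genes ran from 36.7% (no filter, 161 of 368 genes with a member) to 50.9% (DESeq2, 164 of 327). The pooled share difference, chimpanzee minus rhesus macaque, was -0.294 percentage points and lay between -0.336 and -0.246 when 1 library was left out. It was 0.0934 as a mean of shares, 0.00963 at a cut of 27 bases and 0.0539 at 30 bases, and it was -0.153 without the member with most counts. Chosen after seeing the data, a cut of 35 bases gave -0.186 and leaving out the 2 members with most counts gave -0.0269; the last follows from the weight of those exons, and for the others the cause was not tested. The mean density at 36 bases without the member with most counts, also added after seeing the data, was 0.451 and 0.391 in place of 0.530 and 0.539. Median densities kept to between 0.166 and 0.218. Among named exons, leaving out 1 library turned the sign of the share difference for 3 that had not passed. The range was -0.0742 to 1.19 for chromosome 12 from 6731068 (reversed without chimpanzee replicate 1), -0.0134 to 0.275 for chromosome 16 from 31105624 (without chimpanzee replicate 6) and -3.53 to 0.168 for chromosome 19 from 1057539 (without rhesus macaque replicate 4). No paired analysis was possible because the labels give no replicate numbers that link the species. Depth limits most members: 246 of 399 could not be tested.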
